A study of Mus musculus with 3 samples.

Results

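Glycolysis and its oxygen-dependent control were followed through 39 genes, from the glucose transporter Slc2a1 and the enzymes of the pathway to the alpha subunits of the hypoxia-inducible factors (HIF) and their targets. The genes were chosen by name, with earlier results of these data known, and matched to the gene name column of the array files. All 39 were found, on 67 probes, among 30222 gene names in all. Each of the 39 had a probe bright enough to test, as did 15528 genes overall.

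The samples were mouse embryoid bodies, aggregates in which embryonic stem cells differentiate. The mutant group carried Dido3deltaCT, which truncates the C-terminal part of Dido3, a chromatin-associated protein. The other group was the wild type control. Both groups were cultured alongside each other in suspension, in low attachment plates and without leukaemia inhibitory factor (LIF), the cytokine that holds mouse stem cells undifferentiated, and RNA was taken at day 10. On each of 3 two-colour arrays, 1 mutant sample and 1 wild type sample of the same replicate number were hybridised together. The mutant was labelled with Cy3 on replicates 1 and 3 and with Cy5 on replicate 2. The labels call the samples biological replicates and do not say whether each came from its own cell line. The p-values rest on the spread of the mutant over wild type ratios between these 3 arrays, with a variance drawn partly from all genes. They need not cover the spread between cell lines.

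In glycolysis, glucose is split into pyruvate in the cytosol with a net gain of ATP. Lactate dehydrogenase can turn the pyruvate into lactate, or the pyruvate dehydrogenase complex can send it into the mitochondrial citric acid cycle. When oxygen is low, the HIF prolyl hydroxylases no longer mark the HIF alpha subunits for breakdown, and HIF raises transcription of glucose transporters, glycolytic enzymes, secreted angiogenic factors and collagen-modifying enzymes. Pluripotent mouse cells are known for high glycolytic activity, and the use of the pathway shifts as they differentiate.

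No member passed the threshold of adjusted p 0.05 when limma's moderated test was run on log2 ratios (mutant over wild type) and p-values were adjusted over all genes by Benjamini-Hochberg. Across all genes the shares that passed were 0.213% higher and 0.0902% lower in the mutant, 47 genes in all. At an unadjusted p under 0.05 stood 7 members, beside 22.5% of all genes. Some members kept one sign on all 3 arrays with a mean of 2-fold or more, 3 of them higher (7.69%) and 4 lower (10.3%). By that rule 6.92% of all genes were higher and 6.6% lower. Lactate dehydrogenase B (Ldhb) and the platelet-type phosphofructokinase (Pfkp) had higher values in the mutant, with mean log2 ratios of 1.57 and 1.49. The HIF-2 alpha gene Epas1, the collagen prolyl hydroxylases P4ha1 and P4ha2 and the neuronal enolase Eno2 had lower values, with mean log2 ratios of -3.03, -2.34, -2.30 and -1.55. These 6 genes, all of that set but Pdk1, lay between adjusted p 0.05 and 0.1. Under 0.1 were thus 5.13% of members as higher and 10.3% as lower, beside 4.05% and 3.55% of all genes. None of the 6 was under 0.1 when the background model kept every spot (adjusted p from 0.168 to 0.423), with the authors' deposited values or without replicate 1, and only Epas1 was without replicate 3.

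Ldhb, Eno2 and P4ha2 each had 1 probe of 60 bases on the array. Epas1 was read on the brightest of its 3 probes, and Pfkp on the only 1 of 2 bright enough to test. The first 30 bases of the Epas1, Ldhb, Eno2 and tested Pfkp probes are shown in lower case, 5′ to 3′. They are given because the Epas1 probes did not give the same answer. Positions are those of the file headers, on mm9.
Epas1 brightest probe: tcctgtccatgtaacaacttcatgaccatt
Epas1 second lower probe: ccaagcagtggcctttatctgacatgctca
Epas1 discordant probe: aaagtgttctgaaattttataagatttccc
Ldhb probe: aggcttgtttgatgtttgcactaggagctc
Pfkp probe: caaactgaaggggtcccagggcacagggaa
Eno2 probe: ccacagttgccaccatctccgtggctttga
The brightest Epas1 probe lies at chr17:87232615-87232674 on the plus strand. Its other probes lie at chr17:87230587-87230646 and chr17:87230678-87230737 on the same strand. The Ldhb probe lies at chr6:142438770-142438829 and the Eno2 probe at chr6:124710388-124710447, both on the minus strand. The Pfkp probe is listed across chr13:6581718-6583872 on the minus strand, a span of 2155 bases for 60 bases of probe, so that it crosses at least 1 intron. The exon or untranslated region that each probe reads was not looked up here.

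HIF binds DNA at a short core, which was searched in its forms ACGTG and GCGTG on both strands of the 250 bases before each RefSeq gene start (GRCm38.p6). The promoters of the collagen prolyl hydroxylases, of Pfkp and of Ldhb are shown because these members had the larger ratios in each direction. They are printed 5′ to 3′ on the gene's strand, with every match in capitals. CACGT and CACGC are the 2 forms read from the opposite strand.
P4ha1 promoter: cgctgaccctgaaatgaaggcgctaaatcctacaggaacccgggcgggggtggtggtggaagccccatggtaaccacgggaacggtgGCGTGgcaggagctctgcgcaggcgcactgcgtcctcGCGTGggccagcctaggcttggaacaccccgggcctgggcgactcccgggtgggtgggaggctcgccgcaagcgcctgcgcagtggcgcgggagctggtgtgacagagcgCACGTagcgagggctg
P4ha2 promoter: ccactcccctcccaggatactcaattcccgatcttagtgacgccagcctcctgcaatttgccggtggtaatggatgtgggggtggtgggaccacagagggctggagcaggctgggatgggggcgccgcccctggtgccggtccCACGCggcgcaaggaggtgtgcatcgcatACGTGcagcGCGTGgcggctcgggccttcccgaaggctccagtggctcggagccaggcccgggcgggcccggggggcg
Pfkp promoter: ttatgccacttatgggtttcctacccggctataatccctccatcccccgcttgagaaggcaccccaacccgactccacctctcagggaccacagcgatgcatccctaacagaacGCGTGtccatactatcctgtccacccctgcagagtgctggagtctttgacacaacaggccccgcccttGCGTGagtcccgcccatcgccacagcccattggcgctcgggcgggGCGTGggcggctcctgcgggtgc
Ldhb promoter: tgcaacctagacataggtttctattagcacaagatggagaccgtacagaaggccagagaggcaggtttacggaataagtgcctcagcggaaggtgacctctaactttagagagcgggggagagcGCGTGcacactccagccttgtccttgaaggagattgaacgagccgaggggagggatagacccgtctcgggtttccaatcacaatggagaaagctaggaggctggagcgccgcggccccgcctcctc
These stretches lie at chr10:59323046-59323295 (plus strand), chr11:54100674-54100923 (plus strand), chr13:6648772-6649021 (minus strand) and chr6:142507958-142508207 (minus strand). P4ha1 and P4ha2 each held 3 matches, of which 1 was ACGTG and 2 were GCGTG. Pfkp held 3 matches, all GCGTG, and Ldhb held 1, also GCGTG. The Eno2 promoter held no match of these letters in this window. RefSeq promoters were found for 36 members, with 52 promoters in all, and Epas1, Bnip3l and Ndrg1 had none in the table. Of the 52, 78.8% held at least 1 match, beside 54.2% of 12928 promoters of tested genes and 38.6% of all 32851 promoters. Some windows overlap and hold the same match, as in Aldoa, Eno1 and Pfkm. Counted by gene, 33 of 36 members held a match, beside 11226 of 27025 genes. The list includes genes picked as HIF targets, so this share is not independent of how the members were chosen, and its cause was not tested. Median GC content was 61.0% in the members' promoters, 59.2% in those of tested genes and 52.4% overall. CACGTG, which reads as ACGTG on either strand, stood in 5 of the members' promoters. Matches were present in promoters of members with ratios of either sign and in those with ratios near 0, such as Hif1a and Bnip3. A match is a string of letters and no evidence of binding.

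**Figure D1:**
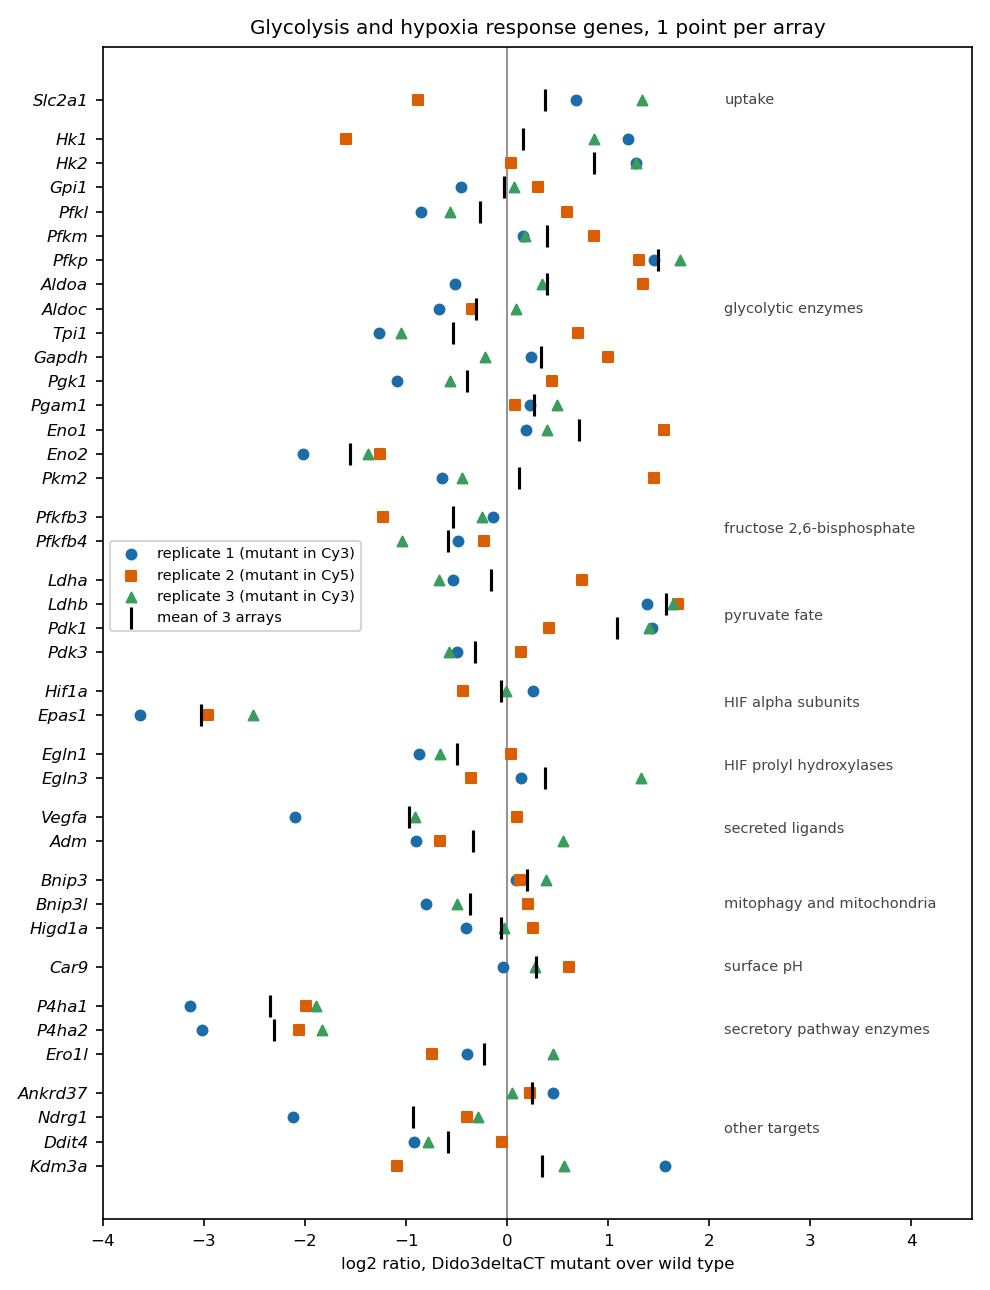
Log2 ratio of mutant over wild type (horizontal axis) for each of the 39 members, grouped by role, with 1 point per array and a bar at the mean of 3 arrays. Epas1, P4ha1, P4ha2 and Eno2 lie left of 0 on every array and Ldhb, Pfkp and Pdk1 right of it, while 14 members have replicate 2 on the opposite side of 0 from replicates 1 and 3.

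At adjusted p under 0.1, 2 members were higher (5.13% of the 39) and 4 were lower (10.3%), beside 4.05% and 3.55% of all genes. By a second rule without a p-value, a mean of 2-fold or more with one sign on all arrays, 3 members were higher (7.69%) and 4 were lower (10.3%), beside 6.92% and 6.6% of all genes. The share on the higher side was near the background under both rules, and the lower side rests on 4 genes. Of the 39 members, 17 (43.6%) had the same sign on all arrays, and 43.6% of all genes did. Mutant and wild type ranges did not overlap for 9 members (23.1%), beside 21.5% of all genes. The median log2 ratio was -0.06 over the members and 0.03 over all tested genes.

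The arrays did not give equal pictures of the pathway. Over the members, the log2 ratios of replicates 1 and 3 had a Pearson correlation of 0.883 across 39 genes, while replicate 2 had 0.482 with replicate 1 and 0.443 with replicate 3. Over all 15528 genes the same correlations were 0.880, 0.150 and 0.182. Replicate 2 had the opposite sign from both other arrays for 14 members (35.9%) and for 39.2% of all genes. In those 14 members 1 dye was brighter on all 3 arrays whichever genotype it carried, Cy3 in 4 (Slc2a1, Hk1, Egln3 and Kdm3a) and Cy5 in 10 (among them Ldha, Tpi1, Pgk1, Pkm2 and Pfkl). Since only replicate 2 had the swapped dyes, a dye effect and a difference of that replicate cannot be told apart. A fit with a dye term, whose error comes from replicates 1 and 3 alone, passed 5 members as higher and 5 as lower at adjusted p 0.05, beside 16% and 15% of all genes. Without replicate 2, 7 members were higher and 13 were lower, beside 25.8% and 21.7% of all genes, and there genotype and dye cannot be told apart.

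Glucose enters through Slc2a1 (GLUT1), the widely expressed glucose transporter. Its level, as log2 normalised intensity, was 16.40, 15.55 and 16.57 in the mutant samples of replicates 1, 2 and 3, against 15.72, 16.43 and 15.24 in wild type. The ranges overlapped, since replicate 2 was high in wild type and the others were high in the mutant. The log2 ratios were 0.68, -0.88 and 1.33, with a mean of 0.38 ± 0.47 (SE, n = 3 arrays, limma adjusted p = 0.674). Here and below, the SE of a mean ratio is limma's moderated one. Its variance is drawn partly from all genes and not from the 3 arrays alone. Hexokinase 2 (Hk2), which traps glucose in the cell as glucose 6-phosphate, had ratios of 1.27, 0.04 and 1.28 and a mean of 0.86 ± 0.35 (adjusted p = 0.231). Hexokinase 1 (Hk1) averaged 0.15 ± 0.60 on its brightest probe, which the files list on chromosome 5, while the gene is on chromosome 10. A dimmer Hk1 probe on chromosome 10 gave 0.47, 1.19 and 0.73, so the probes of Hk1 disagreed on replicate 2.

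Phosphofructokinase commits fructose 6-phosphate to glycolysis, and its muscle, liver and platelet forms are encoded by Pfkm, Pfkl and Pfkp. Pfkp had levels of 10.21, 10.27 and 10.23 in the mutant and 8.75, 8.97 and 8.51 in wild type. All 3 mutant samples stood above all 3 wild type samples. The log2 ratios were 1.45, 1.30 and 1.71, a mean of 1.49 ± 0.24 (SE, n = 3) or 2.81-fold, with adjusted p = 0.0618. A second Pfkp probe, too dim to test, had a mean ratio of 0.31. Pfkl averaged -0.27 and Pfkm 0.40. Within each array the ratio of Pfkp exceeded that of Pfkl by 1.76 ± 0.92 and that of Pfkm by 1.09 ± 0.58 (mean and SD of 3 log2 differences), with the same sign every time. The bifunctional enzymes Pfkfb3 and Pfkfb4, which set the level of the phosphofructokinase activator fructose 2,6-bisphosphate, averaged -0.54 and -0.58 and lay below 0 on every array (adjusted p = 0.379 and 0.290). Replicate 2 carried most of the Pfkfb3 mean, with ratios of -0.14, -1.23 and -0.25 and a mean of -0.20 without it. Without replicate 3, Pfkfb4 averaged -0.36.

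The middle of the pathway gave no common direction. Aldolase A (Aldoa), which splits the six-carbon sugar, averaged 0.39, with ratios from -0.51 on replicate 1 to 1.35 on replicate 2, and aldolase C (Aldoc) averaged -0.31. Glucose phosphate isomerase (Gpi1) averaged -0.03 and triosephosphate isomerase (Tpi1) -0.54. Phosphoglycerate kinase 1 (Pgk1), an ATP-forming step, averaged -0.40 and phosphoglycerate mutase 1 (Pgam1) averaged 0.26. Pyruvate kinase (Pkm2), the last ATP-forming step, had ratios of -0.64, 1.45 and -0.44. Glyceraldehyde 3-phosphate dehydrogenase (Gapdh) was read by 8 probes, whose means ran from -0.22 to 0.42, and the brightest averaged 0.34. Of the 15 members in this enzyme group, Hk1 and Hk2 included, 9 had means above 0 and 6 below, and 6 kept one sign on all arrays. The brightest probes of Pgk1 and Gapdh are listed on chromosomes 3 and X, while Pgk1 is on X and Gapdh on 6, so these values may include closely related sequences.

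The enolases, which make phosphoenolpyruvate, had mean ratios of opposite sign. Eno2, the form best known from neurons, had levels of 7.52, 8.41 and 8.03 in the mutant and 9.54, 9.67 and 9.41 in wild type. Every mutant sample was below every wild type sample. Ratios of -2.02, -1.26 and -1.38 gave a mean of -1.55 ± 0.27 (SE, n = 3) or 2.93-fold lower, with adjusted p = 0.0690. Eno1, the ubiquitous form, averaged 0.71 ± 0.35 with ratios of 0.18, 1.55 and 0.40 (adjusted p = 0.310) and 0.29 without replicate 2, on a probe listed on chromosome 2 while the gene is on chromosome 4. The ratio of Eno2 was below that of Eno1 on each array, by a mean difference of -2.26 ± 0.52 (SD, n = 3).

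At the branch of pyruvate, the lactate dehydrogenase subunits also differed. Ldhb, the subunit typical of heart that favours lactate oxidation, had levels of 15.39, 15.11 and 15.65 in the mutant and 14.01, 13.42 and 14.00 in wild type. The groups were separate, with the lowest mutant sample above the highest wild type sample. On the arrays the ratios were 1.38, 1.69 and 1.64, a mean of 1.57 ± 0.24 (SE, n = 3) or 2.98-fold, with adjusted p = 0.0592. Ldha, the subunit typical of muscle and a classical HIF target, had levels of 15.77, 16.36 and 15.71 in the mutant and 16.31, 15.63 and 16.39 in wild type. Its groups overlapped, with replicate 2 high in the mutant and replicates 1 and 3 high in wild type. Its ratios were -0.54, 0.74 and -0.67 and averaged -0.16 ± 0.37 (adjusted p = 0.824), and its other probes averaged 0.15 and 0.11. The ratio of Ldhb exceeded that of Ldha on each array, by 1.73 ± 0.70 (SD, n = 3).

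Pyruvate dehydrogenase kinases switch off the entry of pyruvate into the citric acid cycle. Pdk1, the kinase known as a HIF-1 target, had levels of 12.28, 11.37 and 12.23 in the mutant and 10.85, 10.96 and 10.83 in wild type. All mutant samples were above the wild type samples, and replicate 2 was the lowest of the mutant samples. Its ratios of 1.43, 0.42 and 1.41 gave a mean of 1.09 ± 0.31 (SE, n = 3) or 2.12-fold, with adjusted p = 0.139. Pdk3 averaged -0.31, and Pdk1 exceeded it by 1.40 ± 0.97 (SD, n = 3) within arrays.

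**Figure D2:**
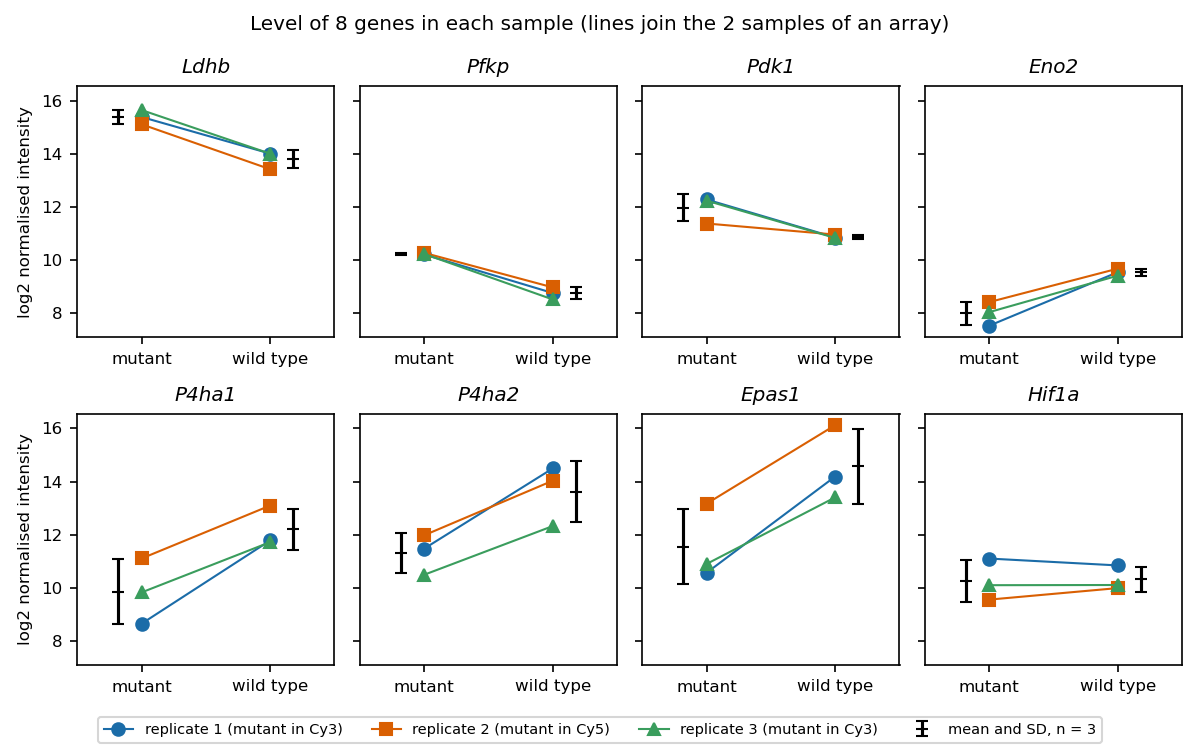
Log2 normalised intensity (vertical axis) of 8 genes in the mutant and wild type samples, with lines joining the samples of 1 array and bars for the mean and SD of 3 samples. Pfkp, Ldhb and Pdk1 are higher in every mutant sample and Eno2, P4ha1, P4ha2 and Epas1 lower, while the Hif1a groups overlap.

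The HIF alpha subunits had unlike ratios. Epas1 had levels of 10.56, 13.17 and 10.89 in the mutant and 14.19, 16.13 and 13.40 in wild type. Replicate 2 was the highest in both genotypes, and all mutant samples were below all wild type samples. The log2 ratios were -3.63, -2.96 and -2.51, a mean of -3.03 ± 0.31 (SE, n = 3) or 8.18-fold lower, with adjusted p = 0.0507. Of the 3 probes, a second gave -2.10, -0.96 and -0.87, and the discordant probe gave -0.28, 1.09 and -0.18. Averaged over its probes, Epas1 had a mean ratio of -1.38 (adjusted p = 0.0852). The discordant probe averaged 0.21, so both the size and the direction of the Epas1 difference depend on which probe is read, and which transcripts each probe detects was not tested.

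Hif1a, which encodes HIF-1 alpha and is known to be controlled mainly through protein stability, had levels of 11.10, 9.55 and 10.09 in the mutant and 10.84, 9.98 and 10.10 in wild type. The groups overlapped, and the mutant of replicate 1 was the highest sample. Its ratios were 0.26, -0.43 and -0.01, a mean of -0.06 ± 0.26 (SE, n = 3, adjusted p = 0.912), and a second, dimmer probe averaged 0.76. Read on the brightest probes, the ratio of Epas1 was below that of Hif1a on each array, by -2.97 ± 0.79 (mean and SD of 3 log2 differences). The HIF prolyl hydroxylases Egln1 and Egln3, the oxygen sensors of the pathway, averaged -0.50 and 0.37 and did not keep one sign. Egln1 was well above background in only 1 of 3 mutant samples.

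**Figure D3:**
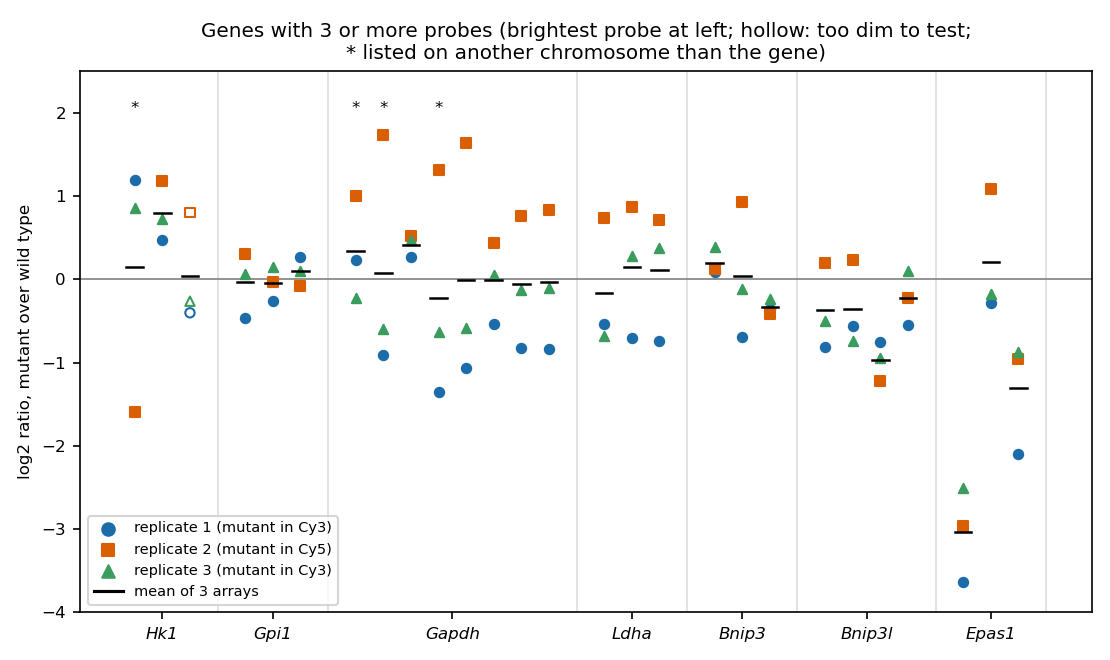
Log2 ratio of mutant over wild type (vertical axis) for every probe of the 7 members with 3 or more probes, 1 point per array and a bar at the mean, with the brightest probe at the left of each gene. The Epas1 probes range in mean from -3.03 to 0.21, and the Gapdh probes from -0.22 to 0.42.

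P4ha1 and P4ha2 encode the catalytic subunits of the prolyl hydroxylase that modifies collagen in the endoplasmic reticulum, and both are known HIF targets. P4ha1 had levels of 8.64, 11.10 and 9.82 in the mutant and 11.78, 13.10 and 11.72 in wild type. P4ha2 had levels of 11.47, 11.97 and 10.49 in the mutant and 14.49, 14.03 and 12.32 in wild type. In both genes every mutant sample was below every wild type sample. The P4ha1 ratios were -3.14, -1.99 and -1.89, a mean of -2.34 ± 0.34 (SE, n = 3) or 5.07-fold lower, and those of P4ha2 were -3.02, -2.06 and -1.83, a mean of -2.30 ± 0.33 or 4.94-fold lower, each with adjusted p = 0.0570. A second P4ha1 probe averaged -1.97. The ratio of P4ha1 minus that of P4ha2 was -0.11, 0.06 and -0.06, with a mean of -0.04 ± 0.09 (SD, n = 3). Ero1l, an oxidase of the same compartment that forms disulfide bonds, averaged -0.23 with no constant sign.

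Among secreted HIF targets, the angiogenic factor Vegfa had levels of 8.64, 10.99 and 10.03 in the mutant and 10.74, 10.89 and 10.94 in wild type. The spread lay almost wholly in the mutant samples, of which replicate 2 was the highest and above its wild type partner. The log2 ratios were -2.10, 0.10 and -0.91, with a mean of -0.97 ± 0.46 (SE, n = 3, adjusted p = 0.294) and of -0.40 without replicate 1. A second Vegfa probe gave -1.02, -0.86 and -0.63 but was well above background in only 1 mutant sample. Adrenomedullin (Adm), a vasodilator peptide, averaged -0.34.

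Carbonic anhydrase 9 (Car9), a surface enzyme of pH control and a sensitive HIF-1 target, had levels of 7.64, 8.37 and 7.73 in the mutant and 7.68, 7.75 and 7.46 in wild type. The groups overlapped, and the mutant of replicate 2 was the highest. Its ratios were -0.04, 0.61 and 0.27, with a mean of 0.28 ± 0.26 (SE, n = 3, adjusted p = 0.566). The mitophagy receptor Bnip3 averaged 0.20 on its brightest probe, 0.04 on another and -0.33 on the dimmest, which was below 0 on every array, so its sign depends on the probe. Its relative Bnip3l averaged -0.37, with 4 probes between -0.97 and -0.22. Higd1a, a mitochondrial protein induced by hypoxia, averaged -0.06. The remaining targets were Ndrg1, a stress-induced gene, at -0.93 (adjusted p = 0.289), the mTOR inhibitor Ddit4 at -0.58, Ankrd37 at 0.24 and the histone demethylase Kdm3a at 0.35. Ndrg1 had ratios of -2.11, -0.40 and -0.29, and its mean was -0.34 without replicate 1. Kdm3a had ratios of 1.56, -1.09 and 0.56.

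**Figure D4:**
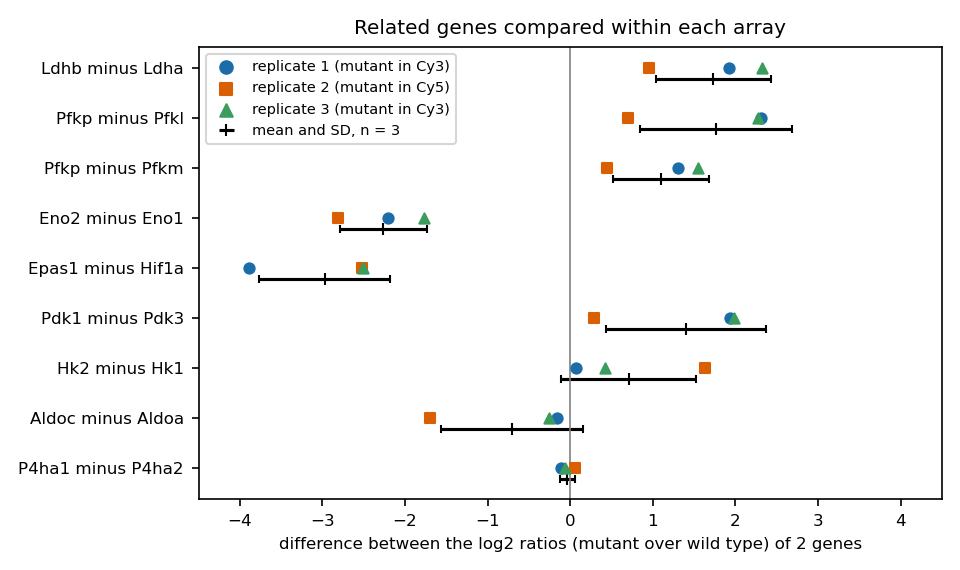
Difference between the log2 ratios (mutant over wild type) of paired genes (horizontal axis), 1 point per array, with the mean and SD of 3 arrays. Each gene is read on its brightest probe. Ldhb minus Ldha, Pfkp minus Pfkl, Pfkp minus Pfkm, Pdk1 minus Pdk3 and Hk2 minus Hk1 lie right of 0 on every array. The Hk1 probe used is listed on chromosome 5. On its dimmer chromosome 10 probe, Hk1 exceeded Hk2 on replicate 2, with ratios of 1.19 and 0.04. Eno2 minus Eno1, Epas1 minus Hif1a and Aldoc minus Aldoa lie left of it, and P4ha1 minus P4ha2 lies close to 0.

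Related genes outside the 39 were read from lists that were chosen with earlier results of these data known, so their counts are descriptive. Of 16 tested glycolysis isozymes and neighbours, 1 was higher at adjusted p under 0.1 and none lower, with a median log2 ratio of 0.01. That gene was Pdk4, another pyruvate dehydrogenase kinase, at 1.55 ± 0.32 (SE, adjusted p = 0.0809). The testis lactate dehydrogenase Ldhc averaged 1.04, the muscle enolase Eno3 -0.96 and the liver bifunctional enzyme Pfkfb1 -0.81. Of 24 tested hypoxia targets, 2 were higher and 1 lower at adjusted p under 0.1, with a median of -0.04. Angptl4, a secreted inhibitor of lipoprotein lipase, had ratios of 1.73, 2.40 and 1.74 and an adjusted p of 0.0569. Rbpj, the DNA-binding factor of Notch signalling, averaged 1.10 (adjusted p = 0.0893). The collagen lysyl hydroxylase Plod2 had ratios of -2.90, -1.29 and -1.65 (adjusted p = 0.0772), and Loxl2, a collagen cross-linking enzyme, averaged -2.74 (adjusted p = 0.103). Plod2 and Loxl2 share with P4ha1 and P4ha2 a known role in collagen.

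None of 13 tested HIF subunits and regulators was under adjusted p 0.1, and their median was -0.09. Cited2, which competes with HIF-1 alpha for a coactivator, averaged -0.92. Hif3a had ratios of 3.16, -0.88 and 3.45, the asparaginyl hydroxylase Hif1an averaged -0.72 and Vhl, which recruits the ligase that marks HIF alpha, -0.57. None of 8 genes of the pyruvate dehydrogenase complex was under 0.1 (median 0.14), where the core subunit Dlat averaged 1.01 (adjusted p = 0.120), Pdhb 0.55, Pdhx 0.32 and the phosphatase Pdp2 -0.67. None of 7 pentose phosphate genes was either (median 0.35), with Rpe at 0.99, Pgd at 0.78, Taldo1 at 0.80 and Pgls at -0.91. Of 8 genes often used as references, Hprt was higher at adjusted p under 0.1 (1.12, adjusted p = 0.0827), Actb averaged -0.76, Gusb 0.32 and Ywhaz -0.27, with a median of -0.01. Hif3a, Hif1an, Pdhb, Pdhx, Pdp2, Taldo1, Pgls and Ywhaz had a replicate 2 ratio opposite in sign to replicates 1 and 3. The other genes named in these lists kept one sign on all arrays.

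Markers of the cell types that an embryoid body can hold also differed between the genotypes. These lists, too, were chosen with earlier results of these data known. Of 9 pluripotency markers, 6 were higher at adjusted p under 0.1, of which Zfp42 and Dppa5a passed 0.05 (Zfp42 3.17, Dppa5a 2.67, Esrrb 2.80, Utf1 2.33). The summed intensity of the 9 ranged over 172220 to 387450 in the mutant and 34304 to 66957 in wild type. Tdgf1 averaged 1.25 and Nanog 0.08, neither with one sign on all arrays. Of 13 extraembryonic endoderm markers, 10 were lower under 0.1 (Sox7 -2.51, Afp -2.23, Lama1 -3.69, Cubn -1.81), with sums of 19234 to 125510 in the mutant and 203300 to 534790 in wild type. Erythroid markers were lower under 0.1 for 3 of 6, all of them globins (Hbb-bh1 -3.91, which passed 0.05, Hba-x -2.74 and Hba-a1 -1.88), with sums of 1233 to 2650 in the mutant and 9162 to 12088 in wild type. The globin Hbb-y averaged -2.78 with a replicate 2 ratio of -0.08 (adjusted p = 0.162), while the erythroid transcription factors Gata1 and Klf1 averaged 0.72 and 0.10 and were above 0 on every array. Endothelial markers were lower for 1 of 4 (Cdh5 -1.49, Tek -0.68, Kdr -0.61, Pecam1 0.19), with sums of 799 to 1066 in the mutant and 1339 to 1510 in wild type. Neural markers were lower for 3 of 4 (Sox1 -4.04, Zic1 -5.41, Fabp7 -3.83, Nes -0.90), with sums of 857 to 1264 in the mutant and 2367 to 54247 in wild type. All 4 had their lowest wild type level on replicate 2. Their ratios were smaller in size there, as in Zic1 (-6.78, -2.21 and -7.26), and Nes had 0.56 on that replicate. Cardiac markers were lower for 3 and higher for 1 of 7 (Myl3 -3.95, which passed 0.05, Myh7 -2.25, Myl7 -1.69, Myh6 1.81), with sums of 3344 to 4693 in the mutant and 6638 to 22764 in wild type. The other cardiac markers averaged -0.44 (Nkx2-5), -0.39 (Actc1) and 0.19 (Tnnt2). Each sum adds the same genes' intensities on a linear scale, so the brightest genes of a list weigh most. In bulk RNA, fewer cells of a type and less RNA per cell cannot be told apart, and the part of these cell types in the ratios of Epas1, P4ha1, P4ha2, Eno2, Pfkp and Ldhb was not tested.

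The tests rest on 3 arrays, whose spots were well above background in 46.5% to 62.5% of cases in the mutant channel and 48.5% to 74.4% in the wild type channel. None of the members' spots was saturated.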

How the data were processed

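RNA of 3 mutant and 3 wild type samples was measured on 3 two-colour Agilent arrays. These share 1 slide and 1 scan date, which leaves no batch to test. The deposited scanner files carry, not yet normalized, the mean intensity of each spot and the median intensity of its surroundings for Cy3 and Cy5. Per the file headers they come from Agilent Feature Extraction 10.7.3.1, which also wrote spot flags, processed intensity values and their log10 ratio of Cy5 over Cy3. The log10 ratio was read here only to check the direction of the authors' deposited log2 ratios. The submitters' processing notes name limma, version not given in the sources used here. The deposited log2 columns of replicates 1 and 3 correlated more closely with each other's scanner values (r = 0.794 and 0.831) than with their own (0.630 and 0.726). Both have one dye orientation. The column medians were -0.04, 0.01 and -0.01, and whether the columns were centred is unknown.

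In R 4.3.3 with limma 3.58.1, intensities were corrected by normexp (offset 50), normalized by loess within each array and expressed as mutant over wild type. For the levels of single samples, the average intensity of both channels was also quantile-normalized between arrays. The ranges and summed intensities rest on these levels, and the step leaves the ratios unchanged. Control spots, 317 to 438 outlier spots an array and 7 spots of extreme background on replicate 3 were left out. Spots of a probe were averaged. A probe was kept if 1 genotype or both had it well above background on every array (19437 of 39429), and the brightest stood for its gene. The test was limma's lmFit and eBayes on the mean ratio, two-sided, adjusted by Benjamini-Hochberg over 15528 genes, and was tested on simulated data. Each SE of a mean ratio is the moderated one of this fit. Pairing follows from hybridisation, since each array holds both samples of 1 replicate number. Python 3.11.15 with pandas 2.3.3 and matplotlib 3.10.9 searched promoters and drew figures.

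The members and lists were chosen with earlier results of these data known. By rule, members under adjusted p 0.1, or with a mean of 2-fold or more of one sign, and Hif1a, Epas1, Vegfa, Slc2a1, Ldha, Pdk1 and Car9 were given in full, and the 4 genes of smallest p in each other list were named. Alternatives covered background correction, normalization, the filter, a dye term, pairing, the choice of probe, the deposited values and leaving out each replicate.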

Additional observations from a re-analysis of the deposited data

How the results depend on the processing

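Under 14 alternatives, the log2 ratios of Epas1, P4ha1, P4ha2, Eno2, Ldhb, Pfkp and Pdk1 kept their sign, as did the differences between related genes given above, except P4ha1 minus P4ha2, which ranged over -0.088 to 0.40. In none of them was Epas1 read on its discordant probe alone, which averaged 0.21. The kept signs of Epas1 and of Epas1 minus Hif1a therefore do not cover that probe. Nor was Hk1 read on its chromosome 10 probe alone, on which Hk2 minus Hk1 had the opposite sign on replicate 2. The count of members called lower at adjusted p 0.05 was 1 (Epas1) with Agilent's processed signals, with median centring, with scaling between arrays and with all probes tested singly, and 0 in the analysis reported above. The 6 members under adjusted p 0.1 all lost that level with every spot in the background model (Epas1 0.168, Ldhb 0.212, P4ha2 0.297, P4ha1 0.354, Pfkp 0.419 and Eno2 0.423). In that setting 5 members had a 2-fold mean of one sign in place of 7, and 7.69% of all genes did in place of 13.5%. The same 6 members also lost the level with the authors' values (0.120 to 0.161) and without replicate 1 (0.114 to 0.400), and all but Epas1 (0.0824) without replicate 3 (0.139 to 0.442). With channels unpaired, Epas1 (0.117), P4ha1 (0.117) and P4ha2 (0.107) lost it. A dye term gave 5 higher and 5 lower, beside 16% and 15% of all genes. Leaving out a replicate gave 0 to 7 higher, 0 to 13 lower and 6 to 14 members with a 2-fold mean of one sign. The highest of these counts came without replicate 2, where 25.8% of all genes were higher and 21.7% lower. The authors' deposited values gave 4 members with a 2-fold mean of one sign, where Pfkp averaged 0.96 and Eno2 -0.94. For the 2-fold counts with a replicate left out and with the authors' values, the share of all genes is not given here. Those counts are therefore no result about the members. With the channels unpaired (no replicate block), 0 members were called in either direction, and 178 genes were higher and 95 lower. Over all genes the calls in place of 33 higher and 14 lower were 0 and 0 with every spot in the background model (1681 genes at unadjusted p under 0.05) and with the authors' values (3049), 247 and 153 with processed signals, 31 and 31 with median centring, 64 and 46 with scaling, 1 and 1 without the filter, 3 and 1 with a filter on both channels, 68 and 36 with the mean over probes, 3 and 2 without replicate 1, and 7 and 7 without replicate 3.

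Members near 0 changed sign. Median centring, which moved the median of all genes to -0.22, gave Pkm2 -0.14, Bnip3 -0.011 and Ankrd37 -0.12. Relative to that median these 3 lie above it. The dye term gave Hk1 -0.28, Gpi1 0.056, Ldha 0.065, Higd1a 0.017 and Kdm3a -0.013. The mean over probes gave Gpi1 0.0065, Ldha 0.034, Bnip3 -0.030 and Hif1a 0.35. Leaving out each replicate gave ranges of -0.10 to 1.01 for Slc2a1, -0.37 to 1.03 for Hk1, -0.20 to 0.19 for Gpi1, -0.71 to 0.017 for Pfkl, -0.082 to 0.85 for Aldoa, -0.54 to 0.50 for Pkm2, -0.61 to 0.099 for Ldha, -0.11 to 0.73 for Egln3, -0.57 to 0.026 for Ero1l, -0.22 to 0.13 for Hif1a, -0.22 to 0.11 for Higd1a and -0.26 to 1.06 for Kdm3a. The cause of these changes was not tested. Signal over background limits Egln1 and the second Vegfa probe, which were well above background in 1 mutant sample.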
